A study of Mus musculus with 10 samples.

Results

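An interval of mouse chromosome 17 named for a duplication of the Glo1 gene was examined for DNA copy number in 10 mice. It comprises the 126 array probes that start between 30202992 and 31397289 (mm9), of 170305 probes on the array and 161460 on autosomes. The interval was chosen by the log2 ratios of these same animals, which varied there, so the levels given below are a description and are not tested. The study compared mice of the ZFLacZ transgenic line, a line first made on an SJL x C57BL/6 background. The 5 ICSI-derived animals came from testis cells that had been frozen for 14 years; sperm was injected into the oocyte, the procedure called intracytoplasmic sperm injection, and the oocytes came from DBA x C57BL/6 females. The 5 naturally born animals are labelled wild-type ZFLacZ progeny, with no further background given. The labels call the controls adult and give no age for the ICSI-derived animals, and their growth note on frozen germ cells stands on the control samples too. Strain background and derivation therefore cannot be told apart between the groups. Both groups had 3 males and 2 females by label, with replicates 4 and 5 female. Liver DNA of 1 animal per array was labelled with Cy5. The Cy3 channel held the same pool on every array, a mix of C57BL/6, SJL and DBA DNA in equal parts. All values are log2 ratios of animal over pool, so a value of 0 means as many copies as the pool holds on average, not 2 copies.

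Laboratory mouse strains differ in the number of copies of many genome segments, and a duplication on chromosome 17 that takes in Glo1 is a known example: it is absent from the C57BL/6J reference genome and is carried by several other inbred strains. Glo1 encodes glyoxalase 1, which together with glutathione clears methylglyoxal, a reactive by-product of glycolysis, and Hagh encodes the enzyme of the next step. In the RefSeq gene table of the mouse (GRCm38.p6) the protein-coding genes run in the order Zfand3, Btbd9, Glo1, Dnah8, Glp1r, Umodl1, Abcg1, Tff3, Tff2, Tff1, Tmprss3 and Ubash3a. Btbd9 encodes a BTB-domain protein, Dnah8 a dynein heavy chain of the sperm tail, and Glp1r the receptor for the gut hormone GLP-1, which acts on pancreatic islets. Abcg1 encodes a lipid transporter and the Tff genes encode trefoil peptides of mucous surfaces. All 14 genes of the list of the interval, its neighbours and Hagh were found in that table. The array files give probe positions in mm9 and no gene names, and the gene table is of another build, so no probe value is assigned to Glo1, Glp1r or Btbd9 here and the measurements are given by position. They concern DNA, and no RNA was measured.

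The interval held a single long stretch at a level of its own, set between flanks at the level of the rest of the autosomes. Fitted over all 10 animals together, the stretch ran from 30586287 to 31036974, which is 451 kb and 49 probes. The probe before it lay at 30579116 to 30579175 and the probe after it at 31049414 to 31049473. If both lie outside it, the true stretch can be up to 470.2 kb long. Some of the fits given below place the probe after it inside, and the stretch could then reach to the next probe, which starts at 31061146. The probes of the interval were a median of 8.66 kb apart, and the widest spacing was 42.1 kb, in the flank on the right. All 126 probes were well above background in both channels on all 10 arrays, none of their 130 spots was saturated, and 1 of them carried an outlier flag, on 1 array.

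**Figure D1:**
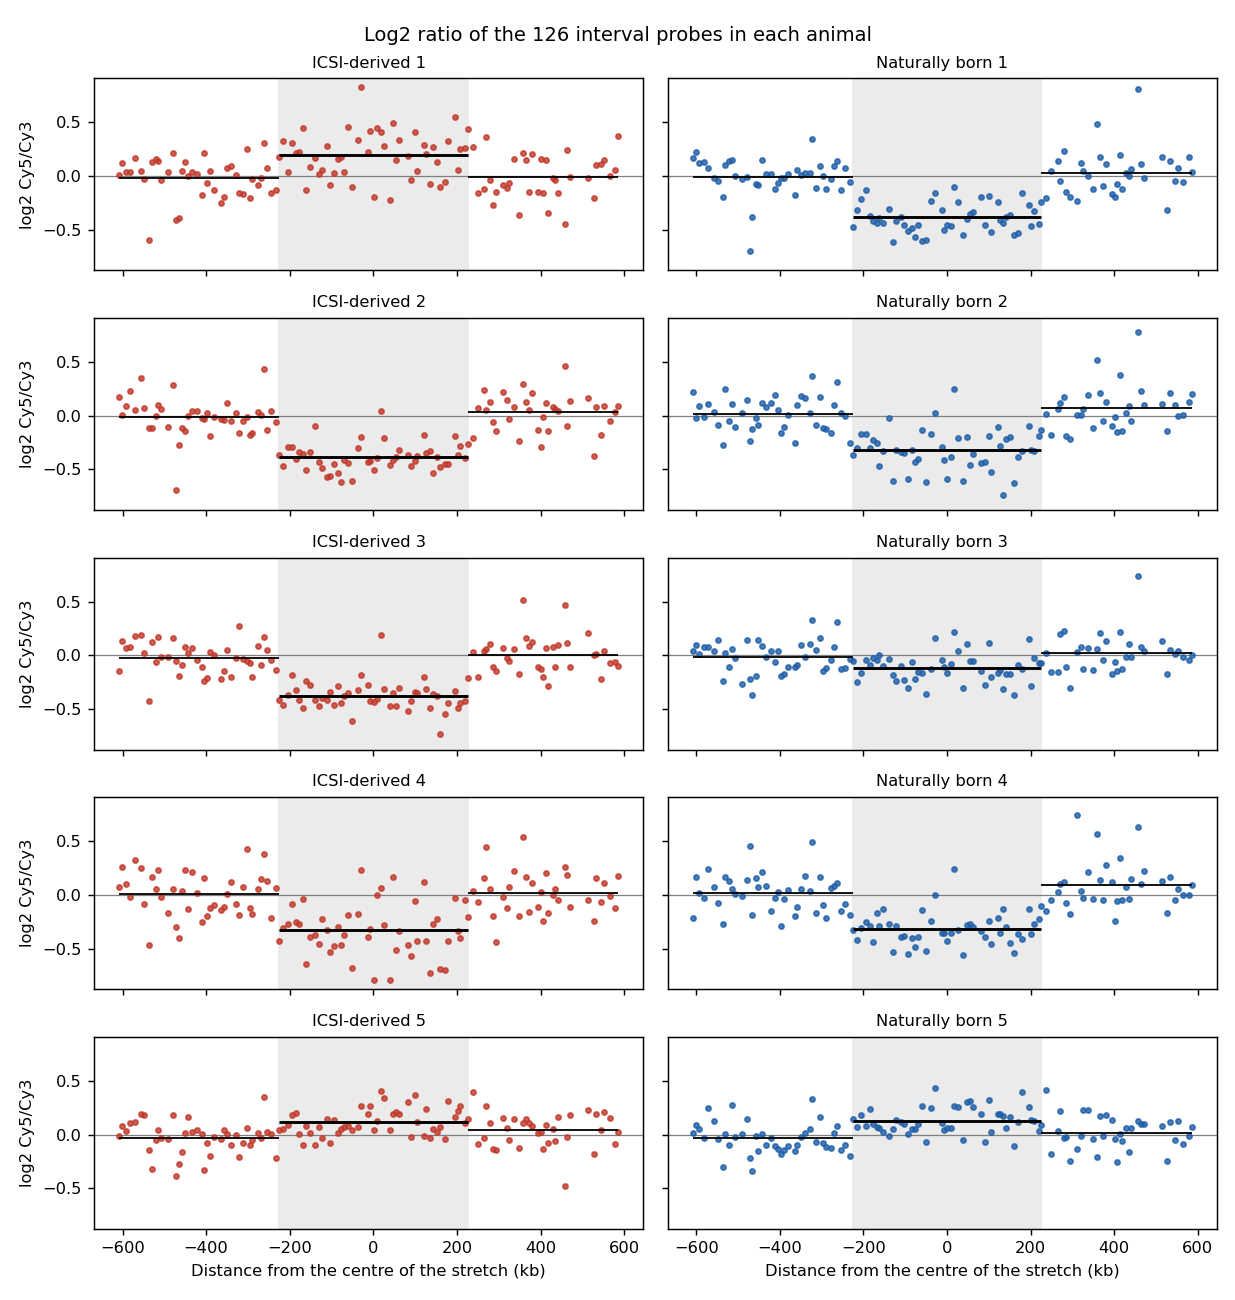
Log2 ratio of Cy5 over Cy3 (vertical axis) of the 126 interval probes against distance from the centre of the stretch in kb (horizontal axis), 1 panel per animal, with ICSI-derived animals in red and naturally born animals in blue. Grey marks the stretch and black lines the mean of the stretch and of each flank. The flank means stay between -0.04 and 0.09, while the stretch lies below them in 7 animals and above them in 3.

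The edges were close to each other in most animals. Fitted in each animal alone, the left edge fell on the same probe in 6 of the 10 animals and 1 probe earlier in naturally born replicates 2 and 4. The right edge fell on 31049473, 1 probe beyond the joint edge, in 5 animals: ICSI-derived replicates 1, 2 and 5 and naturally born replicates 1 and 5. That edge probe was intermediate in level. It stood at 0.27, -0.20, 0.03, 0.03 and 0.39 in ICSI-derived replicates 1 to 5 and at -0.21, 0.02, 0.02, -0.15 and 0.41 in naturally born replicates 1 to 5, so the animals kept much of their order there while several were back at 0. ICSI-derived replicate 5 and naturally born replicate 3, whose stretches lay closest to their flanks, gave the edges that were farthest off, at 30781591 and at 30557121 on the left.

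The animals fell on separate levels, and both groups held animals at the low and at the high end. Among ICSI-derived animals the mean over the 49 probes was 0.19 in replicate 1, -0.38 in replicate 2, -0.38 in replicate 3, -0.33 in replicate 4 and 0.11 in replicate 5. Among naturally born animals it was -0.38 in replicate 1, -0.32 in replicate 2, -0.11 in replicate 3, -0.32 in replicate 4 and 0.13 in replicate 5. The 6 lowest animals, 3 of each group, lay within 0.07 of each other, and 3 animals lay above the pool, with ICSI-derived replicate 1 highest. The other two of these, the replicates numbered 5 of both groups, were the 2 arrays of slide 3, so all of slide 3 was high. Among the 4 arrays of slide 1 only ICSI-derived replicate 1 was high, and among the 4 of slide 2 none was. The part of the slide in these levels was not tested. Naturally born replicate 3 lay alone between the lowest 6 and the highest 3. The SD between the 49 probes within an animal ran from 0.12 in naturally born replicate 5 to 0.24 in ICSI-derived replicate 4, and the SE of a level from 0.017 to 0.035. These errors cover the scatter of probes on 1 array, since each animal was measured once.

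In the order of the levels, the widest gaps between neighbours lay on both sides of naturally born replicate 3, 0.20 below it and 0.23 above it. Every other step between neighbours was at most 0.065. The step of 0.065, from naturally born replicate 5 to ICSI-derived replicate 1, had an SE of 0.024 over the paired probes. With 1 array per animal there is no spread between samples of an animal to set these gaps against, and the order within the 6 lowest and within the 3 highest is not interpreted. The separation of high from low animals was seen on most single probes. The animals were ordered by the mean of these same probes, and the edges were fitted to their levels. The counts that follow therefore describe the separation and are no further evidence for it. ICSI-derived replicate 1 and naturally born replicate 5 each exceeded each of the 6 lowest animals on all 49 probes, ICSI-derived replicate 5 on 47 to 49, and naturally born replicate 3 on 42 to 49. On 46 of the 49 probes the 3 highest animals all lay above all of the 6 lowest, and on 38 naturally born replicate 3 did so too. Within the 3 highest the probes were mixed, with ICSI-derived replicate 1 above naturally born replicate 5 on 32 probes and above ICSI-derived replicate 5 on 29.

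The array labelled naturally born replicate 3 also stood between the sexes on the sex chromosomes. Its mean log2 ratio was -0.033 on chromosome X, where the other labelled males lay between -0.61 and -0.55 and the females between 0.26 and 0.28. On chromosome Y it was -0.0072, against 0.75 to 0.82 in the other labelled males and -1.57 to -1.42 in the females. Whether what sets this array apart on the sex chromosomes also sets its level in the stretch was not tested, and results that use it are given with and without it where it changes them.

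The differences between arrays came from the channel of the animals' DNA. For each channel the mean log2 signal of the stretch was taken against the flanks of the same array and against the mean over the arrays. In Cy5 this measure was 0.37, -0.21, -0.17, -0.16 and 0.32 in ICSI-derived replicates 1 to 5 and -0.19, -0.17, 0.076, -0.18 and 0.31 in naturally born replicates 1 to 5. In Cy3, the pool common to all arrays, every array lay between -0.023 and 0.019. The SD over the 10 arrays was 0.25 in Cy5 and 0.013 in Cy3.

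**Figure D2:**
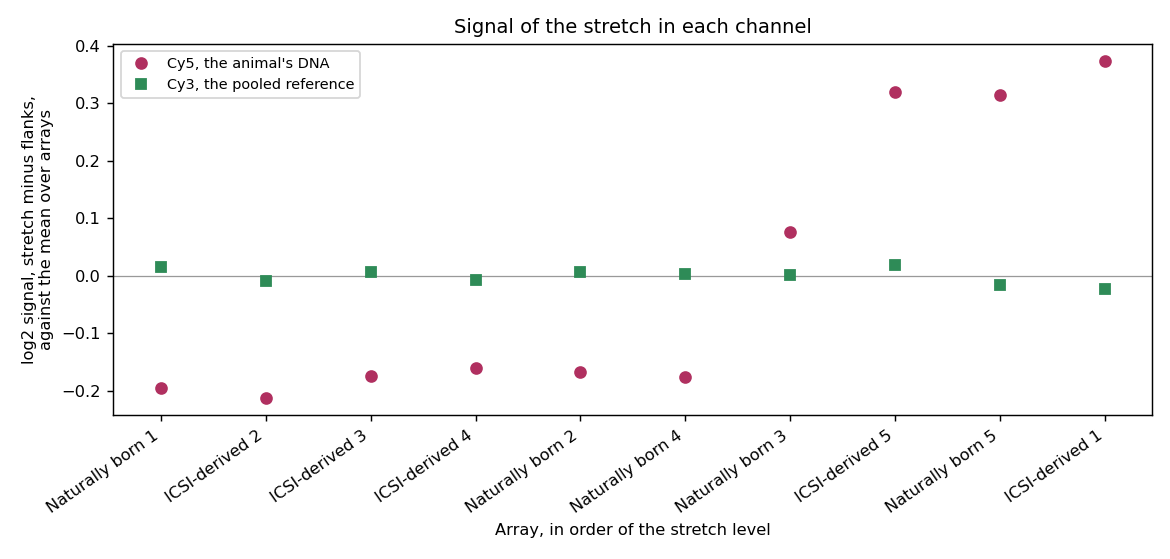
Log2 signal of the stretch minus that of the flanks, against the mean over arrays (vertical axis), for the Cy5 channel of the animal (circles) and the Cy3 channel of the pool (squares), with the 10 arrays in the order of their stretch level (horizontal axis). The Cy5 values run from -0.21 to 0.37, while the Cy3 values stay between -0.023 and 0.019.

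The per-animal levels were set beside the copies expected if strains of the pool carry a duplication. A strain with the duplication on both chromosomes has 4 copies and one without has 2, so the pool holds 2.67 copies on average if 1 of its 3 strains is duplicated, 3.33 if 2 are and 4 if all are. Array ratios fall short of the true ratio. On chromosome X, where females have 2 copies and males 1, the difference should be 1 and was 0.85, taken over the 4 females and the 5 males whose sex chromosomes matched their label. At that response, with 1 duplicated strain, 2 copies are expected at -0.35, 3 copies at 0.14 and 4 copies at 0.50 in an animal. With 2 duplicated strains the expected levels are -0.62, -0.13 and 0.22, and with 3 they are -0.85, -0.35 and 0.

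With 1 duplicated strain and the measured response, 9 of the 10 animals lay within 0.051 of an expected level. At a response of 1 the distance was 0.086 in ICSI-derived replicate 4, 0.096 in naturally born replicate 2 and 0.10 in naturally born replicate 4. The 6 lowest animals were nearest to 2 copies, and the 3 animals above the pool were nearest to 3; none was nearest to 4. Turned into copies at the measured response, the levels came to 3.13, 1.95, 1.96, 2.04 and 2.93 in ICSI-derived replicates 1 to 5 and to 1.95, 2.05, 2.43, 2.06 and 2.96 in naturally born replicates 1 to 5. Naturally born replicate 3, at 2.43 copies, lay between 2 and 3 and was the only animal away from a whole number; its nearest whole number was 2 at the measured response and 3 if the response is taken as 1. The root mean square distance to the nearest expected level was 0.081 over all animals and 0.032 without naturally born replicate 3.

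The distances to the expected levels did not settle the number of duplicated strains over all 10 animals. The setting with 3 duplicated strains counts C57BL/6 among them, although the C57BL/6J reference genome lacks the duplication. In that setting an animal bred only from strains of the pool would hold 4 copies and be expected at 0. The backgrounds given for the ICSI-derived animals name only SJL, C57BL/6 and DBA, and their levels ran from -0.38 to 0.19. The label of the pool names no substrain, and the substrains behind the animals were not tested. At the measured response the root mean square distance was 0.18 with 2 duplicated strains and 0.093 with 3, against 0.081 with 1. At a response of 1 the order of 1 and 3 turned, with 0.108 for 1 duplicated strain, 0.105 for 3 and 0.171 for 2. Without naturally born replicate 3, the distances for 1, 2 and 3 duplicated strains were 0.032, 0.19 and 0.090 at the measured response and 0.063, 0.18 and 0.10 at a response of 1. The steps between animals do not depend on what the pool holds, but they do depend on the response. Divided by the response, the stretch of ICSI-derived replicate 5 exceeded those of the 6 lowest animals by 0.51 to 0.59, naturally born replicate 5 by 0.52 to 0.61 and ICSI-derived replicate 1 by 0.60 to 0.68. A step from 2 to 3 copies is 0.58, one from 3 to 4 copies 0.42 and one from 2 to 4 copies 1. The steps of these 3 animals were all above the value for 3 to 4 copies and all below the value for 2 to 4. Undivided, as at a response of 1, they were 0.43 to 0.50, 0.44 to 0.51 and 0.51 to 0.58 in the same order. Those values lay between the steps for 3 to 4 and for 2 to 3 copies, so the steps did not tell these 2 apart. Divided by the response, naturally born replicate 3 exceeded the 6 lowest by 0.24 to 0.32, less than any of these steps. Since the strains enter the pool equally, which of them is duplicated cannot be told apart by these levels.

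**Figure D3:**
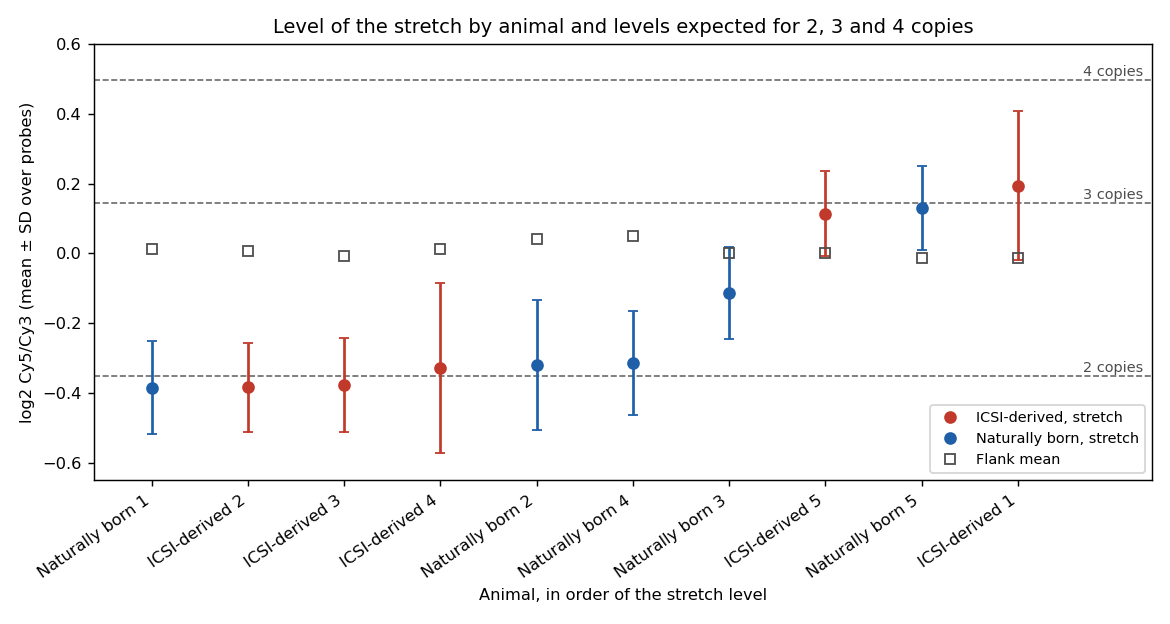
Mean log2 ratio of the 49 probes of the stretch in each animal (circles, bars are the SD between probes; red for ICSI-derived, blue for naturally born) and of the 77 flank probes (open squares), in the order of the stretch level. Dashed lines give the levels expected for 2, 3 and 4 copies if 1 of the 3 pool strains is duplicated, at the response of 0.85; 6 animals lie near the line for 2 copies, 3 near the line for 3 copies, and naturally born replicate 3 lies between these lines.

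The question that the study's design poses, whether animals from long-frozen germ cells differ in copy number from naturally born ones, gave no difference past the tests in this interval. The mean of the stretch was -0.16 ± 0.29 over the ICSI-derived animals and -0.20 ± 0.21 over the naturally born (SD, n = 5 each). The difference of 0.044 had p = 0.849 in a two-sided exact permutation test, which with 5 against 5 animals cannot go below 0.00794. The groups overlapped, with levels from -0.38 to 0.19 and from -0.38 to 0.13. Within slide 1 the difference was 0.26 (2 animals per group, exact permutation test, p = 0.667), within slide 2 it was -0.14 (2 animals per group, exact permutation test, p = 0.333), where both ICSI-derived animals lay below both naturally born ones. With 2 against 2 animals that test cannot go below 0.333. Slide 3 held 1 animal of each group, 0.015 lower in the ICSI-derived one. Leaving out ICSI-derived replicate 1 turned the difference to -0.043 and leaving out ICSI-derived replicate 5 to -0.023; without naturally born replicate 1 it was -0.0015 and without naturally born replicate 3 it was 0.066. Without ICSI-derived replicate 2, 3 or 4 it was 0.10, 0.10 or 0.088, and without naturally born replicate 2, 4 or 5 it was 0.015, 0.016 or 0.13, so its size depended on each animal counted.

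The flanks were at the autosomal level in both groups. Over the 77 flank probes the mean was -0.00031 ± 0.011 for ICSI-derived against 0.019 ± 0.027 for naturally born mice (SD, n = 5 each), a difference of -0.019 (two-sided exact permutation, p = 0.206). Of the 126 interval probes, limma called 0 at a Benjamini-Hochberg adjusted p under 0.05, where it called 0.0198% of the 161460 autosomal probes. At an unadjusted p under 0.05 limma picked 4 interval probes, or 3.17%, against 3.27% of all autosomal probes, and none of the 4 lay in the stretch. The median difference between the groups was 0.046 over the probes of the stretch, 0.017 over the interval and -0.00038 over all autosomal probes. The SE of a probe's group difference had a median of 0.14 in the stretch and 0.064 in the flanks.

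The 3 interval probes with the smallest limma p all lay in the flanks. At the probe at 30489479 to 30489538, in the left flank, ICSI-derived replicates 1, 2, 4 and 5 stood at -0.15, -0.16, -0.18 and -0.21, replicate 3 at 0.27, and the naturally born animals between 0.33 and 0.49. The difference of -0.46 ± 0.09 (SE) had an adjusted p of 0.39 in limma. Without ICSI-derived replicate 3, the animal of its group nearest to the other group, this was the 1 interval probe that limma called (adjusted p = 0.00286). The autosomal probes called then rose from 32 to 77. The probe at 31268776 to 31268835, in the right flank, had a difference of -0.56 ± 0.18 (SE), with an unadjusted limma p of 0.00892. For the probe at 30255040 to 30255099, in the left flank, the difference was 0.15 ± 0.06 (SE), with an unadjusted limma p of 0.0233. Both had an adjusted p of 1.00 in limma. At the 6 probes next to these 3, the group difference lay between -0.068 and 0.056, so none of the 3 was part of a longer run.

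Within the stretch the probes told nearly the same story, with scatter that differed between arrays. The correlation of a probe with the mean of the other 48, over the 10 animals, had a median of 0.94 and ran from 0.72 to 0.99, with 35 of the 49 above 0.9; in the flanks the median correlation with the stretch was -0.10. These are descriptions over animals on separate levels, with arrays and pool in common. The edges of the stretch were fitted to these same values, so its contrast with the flanks in correlation and in range follows in part from the fit. The range over the animals had a median of 0.71 in the stretch and 0.29 in the flanks. The widest ranges were 1.06, 1.02 and 0.93, at the probes starting at 30751317, 30781591 and 30643362, and in each the highest animal was ICSI-derived replicate 1. The narrowest were 0.51, 0.52 and 0.53, at the probes starting at 30828782, 30659117 and 30932636.

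The probe at 30858136 to 30858195 was printed 5 times on each array and shows the technical error of a spot. Its mean was 0.50, -0.42, -0.35, 0.16 and 0.19 in ICSI-derived replicates 1 to 5 and -0.40, -0.20, 0.10, -0.27 and 0.30 in naturally born replicates 1 to 5. The SD between the 5 spots was 0.042 to 0.12, so ICSI-derived replicate 4 repeated at 0.16 ± 0.05 over the 5 spots while its stretch lay at -0.33. That array and ICSI-derived replicate 1 had the largest spread between neighbouring probes in the file headers, 0.21 and 0.20, against 0.14 to 0.17 on the others. After the mean of each array and of each probe were taken off, the correlations of pairs of arrays over the 49 probes ran from -0.63 to 0.60. These 2 noisier arrays, ICSI-derived replicates 1 and 4, had the highest, r = 0.60, and r = 0.40 over the 77 flank probes. A single probe of these arrays can thus stand far from the level of the stretch even where its spots repeat.

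Some flank probes varied between animals more than their neighbours. Of 77 flank probes, 6 had a range over 0.6, 1 of them the edge probe at 31049414 already described; this group was picked after its values were seen. At the probe starting at 31268776 the values were -0.44, 0.46, 0.47, 0.26 and -0.48 in ICSI-derived replicates 1 to 5 and 0.81, 0.78, 0.74, 0.64 and 0.12 in naturally born replicates 1 to 5. The 3 animals that were highest in the stretch were the lowest here. The probe starting at 31169698 also ran against the stretch, at 0.21, 0.30, 0.51, 0.54 and 0.11 and at 0.48, 0.52, 0.06, 0.57 and -0.21 in the same order. At both probes the correlation with the stretch was near -0.8 (-0.80 and -0.79, over 10 animals). The other 3 probes of this kind, starting at 30339089, 30489479 and 31122113, did not follow the stretch, with correlations of -0.05, -0.30 and -0.24.

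Probes that sort the animals like the stretch were found mainly on the same chromosome. The search took the autosomal probes outside the interval with an SD over the animals of at least 0.15, of which 1363 lay on chromosome 17 and 27526 elsewhere. Of the 10 with the highest correlation with the stretch level, 8 lay on chromosome 17, between 4350.2 and 9797.7 kb from the stretch, and the others on chromosomes 14 and 12. The most alike was the probe at 35387186 to 35387245 (r = 0.96 over 10 animals), with 0.17 and 0.13 in ICSI-derived replicates 1 and 5 and 0.21 in naturally born replicate 5, -0.16 in naturally born replicate 3, and -0.48 to -0.21 in the other 6 animals. The 3 most opposite probes were 1 on chromosome 4 at 136349881 to 136349936 (r = -0.99) and 2 on chromosome 17, at 41417969 to 41418028 and at 40864426 to 40864485 (r = -0.98 each). At the last of these the same 3 animals stood between -0.34 and -0.31, naturally born replicate 3 at 0.11, and the other 6 between 0.33 and 0.48.

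Counted by distance, with bounds set after the values were seen, most of the alike or opposite probes of chromosome 17 lay within 15 Mb and on the distal side. A correlation beyond 0.8 in either direction was found for 48 of 589 such probes within 15 Mb of the stretch (8.15%, and 1 of 24 within 1 Mb). Of these 48, 42 were among the 307 probes on the distal side and 6 among the 282 on the proximal side. It was found for 6 of 774 probes farther away on chromosome 17 (0.775%) and 63 of 27526 on the other autosomes (0.229%). Of the 54 on chromosome 17, 15 ran with the stretch and 39 against it. Because the animals fall on few levels, these correlations say mainly which probes set the same 3 animals apart, with naturally born replicate 3 between. Neighbouring probes are not independent, and no test was made.

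**Figure D4:**
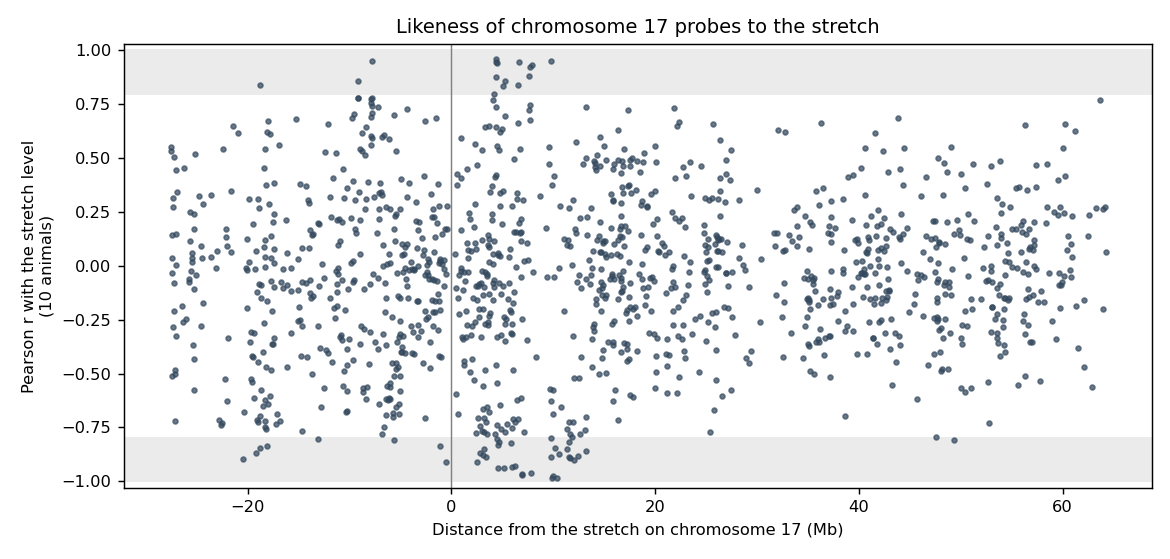
Pearson correlation over the 10 animals between each chromosome 17 probe outside the interval and the level of the stretch (vertical axis), against distance from the stretch in Mb (horizontal axis), for the 1363 probes with an SD over animals of at least 0.15. Grey bands mark correlations beyond 0.8; 48 of the 54 points in them lie within 15 Mb of the stretch.

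The range of the stretch over the animals can be set beside other segments of its size, as a description only: the interval was chosen for this variation and the edges were fitted to it, while the windows have arbitrary edges. The autosomes were cut into 3283 adjacent windows of 49 probes that do not overlap the stretch. Their range over the animals had a median of 0.081 and a 95th percentile of 0.16, against 0.58 for the stretch. In 3 windows the range was as large or larger, all on chromosome 4 between 111307333 and 113286297, and it reached 2.62 there. The level of those windows had correlations of 0.013, -0.0021 and 0.059 with that of the stretch over the 10 animals.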

How the data were processed

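Liver DNA of 10 mice was measured on 10 Agilent 2-colour arrays on 3 slides, each slide holding both groups equally. Per the file headers, Feature Extraction 10.7.3.1 subtracted background from the deposited intensity values and scaled each dye linearly. The deposited table of log10 ratios equals the scanner files' log10 ratio column, which is Cy5 over Cy3 per the labels, and its column medians ran from -0.00096 to 0.0026, with no centring added. Partek 6.5 is named without a role in the submitters' processing notes. The headers of 6 arrays name mm9; the other 4 carry the same coordinates.

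Control spots were dropped, spots of a probe averaged, and log2 ratios of processed intensities centred on each array's autosomal median. The stretch was found by least squares, as the run of at least 5 probes with its own mean in every animal. Limma 3.58.1 in R 4.3.3 (group and sex, two-sided, all autosomal probes) gave the probe tests; permutation tests were exact. The replicates are separate animals that may share parents, which the permutation and limma tests do not take into account. The limma step and the edge fit were tested on simulated data. Python 3.11.15, numpy 2.4.6 and scipy 1.17.1 were used.

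Members, lists and tests were chosen with earlier results of these data known. Named probes were, by rule, the edges and their neighbours, the 3 widest and 3 narrowest ranges in the stretch, the 3 smallest p, and the 10 most alike and 3 most opposite probes outside; probes outside it were picked with their values known. Alternatives were other centring, normexp (offset 50, on median intensities), loess, the value table, filters on flagged and dim probes, medians, moved edges, no sex term, slide and replicate number as blocks, and leaving out animals; the level against the flanks and 3 arrays left out together were added after the data were seen.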

Additional observations from a re-analysis of the deposited data

Results flagged for a closer look

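In 44 sets of 5 animals, 22 measures in each group, 5 single values stood far from the others of their set. Chance alone gives about 1 in 20 sets where the sets are not picked by their values. Several probes here were picked for a small p or a wide range, and a single far value widens a range. The count therefore cannot be set against that rate. At the probe at 30489479 ICSI-derived replicate 3 stood at 0.27, with the other ICSI-derived animals between -0.21 and -0.15, and naturally born replicate 4 at 0.49, with the other naturally born animals between 0.33 and 0.37. At the probe at 31268776 naturally born replicate 5 stood at 0.12, with the others of its group between 0.64 and 0.81. At the probe at 31122113 naturally born replicate 4 stood at 0.74, with the others between -0.23 and 0.03. Inside the stretch, at the probe at 30828782, naturally born replicate 1 stood at -0.10, with the others between 0.22 and 0.26. No mean of the stretch or of a flank, and no channel value, was set apart in this way in either group. The causes were not tested.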

How the results depend on the processing

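Under the 10 alternatives of centring, background, normalisation, filters, medians and edges, the level of an animal moved by at most 0.051, taken against the flanks. The 6 lowest animals, the 1 between and the 3 highest were the same in 10 of 10, while the order within the 6 lowest changed in 5. With 1 duplicated strain throughout, the whole number of copies nearest to each animal changed in 1 of 120 repeats, for naturally born replicate 3, to 3 at a response of 1. Most of these repeats left out another animal, which leaves an animal's own level as it was, so they could hardly change the number. The whole numbers do depend on the pool: with 3 duplicated strains, 6 animals were nearest to 3 copies and 4 to 4 at the measured response. Leaving out 1 animal left the left edge in place, and the right edge lay between 31036974 and 31049473; it moved to the latter in 3 of 10 cases, without ICSI-derived replicate 3 or 4 or naturally born replicate 2. The group difference of the stretch was 0.044 to 0.058 under the other processing. It ran from -0.043 to 0.13 when 1 animal was left out, was -0.14 within slide 2 and -0.015 within slide 3, and was 0.0068 without the array between the sexes (naturally born replicate 3) and the 2 noisiest (ICSI-derived replicates 1 and 4) (exact permutation test, p = 0.743); p lay between 0.333 and 1, where the tests within slides cannot go below 0.333. The flank difference kept its direction in all 19 alternatives, from -0.027 to -0.0073 (exact permutation tests, p from 0.095 to 0.56). These alternatives use mostly the same arrays, so the constant direction is no separate evidence of a difference. The count of interval probes called by limma was 0 in 19 of 20 alternatives and 0 to 1 when an animal was left out; without ICSI-derived replicate 3 the autosomal count rose from 32 to 77. With the replicate number as a block (replicate block) limma called 0 interval probes and 25 autosomal ones, and the stretch difference was 0.044 (exact sign-flip permutation, p = 1, with 0.0625 the smallest it can give). Same-numbered animals also share slide and labelled sex, and their deviations had correlations from -0.28 to 0.15, and none correlated best with its own number. Without naturally born replicate 3, 7 of the 10 most alike probes lay on chromosome 17, and 9 were shared with the first 10. The number of arrays limits the precision.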
